A study of Mus musculus with 5 samples.

Results

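The 7 mRNAs described here encode parts of the transport machinery that runs on microtubules: the dynein heavy chain (Dync1h1), the kinesins Kif1a and Kif1b, the dynein adaptor Hook1, the structural microtubule-associated protein Map2, the plus-end binding protein Nav1 and the alpha-tubulin Tuba1a. They were chosen by name, with earlier results of these data known. Every deposited region that lies on 1 of them was used. This gave 7 of the 4727 genes with a region in any of the 4 deposited lists. RNA immunoprecipitation followed by sequencing was done on hippocampus of C57BL/6 mice to find mRNAs bound by CYFIP1, a protein of the fragile X protein pathway and of the actin-regulating WAVE complex. Anti-HA was used on 2 knock-in samples (knock-in HA), control IgG on 2 knock-in samples (IgG) and anti-HA on 1 wild-type sample (wild-type HA), so 5 libraries fall into 3 groups. Each list pairs 1 knock-in HA library with the IgG library of the same knock-in number, here called mouse 1 and mouse 2, or with the wild-type HA library, which both lists over wild type share. The labels used here give no age, no sex and no number of animals per library, and they do not describe the tag's construct. Nothing says that the numbered samples came from separate animals, so the spread between them, and p-values based on it, may be technical.

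Microtubules are polymers of alpha- and beta-tubulin with a fast-growing plus end. Kinesins of the KIF1 family carry synaptic vesicle precursors and other cargo toward plus ends along axons, while cytoplasmic dynein, joined to its cargo by dynactin and adaptors such as the Hook proteins, moves toward minus ends. MAP2 binds along microtubules of dendrites, and its mRNA is known for its presence in dendrites as well as in the cell body.

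A fold below is the ratio of knock-in HA to control reads over a gene's regions, divided by the median ratio of all regions with at least 20 reads in that list. A gene is called higher or lower where the 95% exact (Clopper-Pearson) counting interval of its fold lies wholly above or below 1 and it has at least 20 reads in the list. These intervals cover counting error of 1 library pair only. They may be too narrow even for that, because PCR reads are not independent molecules. Where 1 library of a pair holds fewer than 20 reads, a gene may pass the filter only through the other library, which partly fixes its call. The lists hold reads inside called regions only, so library depth is unknown, and a gene without a region has no value. The regions held 99575 and 64055 HA reads over IgG in mice 1 and 2, and 154408 and 166760 over wild type. For mice 1 and 2 the median ratios over IgG were 2.89 and 0.947, and those over wild-type HA 1.41 and 1.75. Of the 756 regions behind the mouse 2 median over IgG, 277 lie on chromosome 12 and 270 on chromosome 15. Those chromosomes' medians were 0.755 and 0.827 of it, while that of 19 regions on chromosome 4 was 3.29 times it. Folds over IgG in mouse 2, and limma tests over IgG, rest on this scale. With the pooled ratio of each list as the scale, all log2 folds over IgG shift by -0.42 (mouse 1) and -1.09 (mouse 2), and those over wild-type HA by 0.73 and 0.93. Cyfip1 mRNA, the check of the labels, held 6101 and 6186 HA reads in mice 1 and 2, against 67 and 115 IgG reads and 431 and 416 wild-type HA reads, and was called higher in all 4 lists. Of 8 markers of excitatory hippocampal neurons 4 had a region (Slc17a7, Neurod6, Prox1 and Calb1), as did 3 of 6 of astrocytes, 2 of 6 of oligodendrocytes, 1 of 6 of endothelium and 0 of 6 of interneurons, 0 of 6 of microglia and 0 of 5 of choroid plexus.

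Over wild-type HA, most members lay lower in the knock-in HA libraries, Nav1 lay on neither side and Hook1 lay higher. All 7 members had at least 20 reads in both lists over wild type. In mouse 1, 5 of them were called lower (Dync1h1, Kif1a, Kif1b, Map2 and Tuba1a), where 8.29% of all 1942 genes with that many reads were called lower. In mouse 2, 4 were called lower (the same without Map2), where 9.30% of 1677 genes were. Called lower in both mice were 4 members, against 6.78% of 1194 genes. The members were chosen with earlier results of these data known, so they are not an unselected set beside all genes. The intervals also narrow with more reads, and the shares over all genes are not matched to the members in reads. Hook1 was the 1 member called higher in either mouse, where 11.5% of genes were called higher in mouse 1, 9.06% in mouse 2 and 6.11% in both. With 3 wild-type reads in each list, Hook1 passed the 20-read filter only through its HA reads, so this call is partly fixed by the filter. Tuba1a, with 6 and 10 HA reads in mice 1 and 2, passed it only through its wild-type reads. Its lower calls are partly fixed in the same way. The median fold of the members was 0.451 in mouse 1 and 0.517 in mouse 2, beside 1.15 and 1.10 over all genes with at least 20 reads. The wild-type library is the same in both lists, which leaves no test of genotype, and a difference of that library alone cannot be told apart from one of genotype. In bulk tissue, fewer cells of a type and less RNA per cell cannot be told apart either. On the pooled scale 3 members were called lower in both mice (Dync1h1, Kif1a and Tuba1a), where 2.51% of the 1194 genes were, and the means of Kif1b and Map2 lay near 1. Nav1 then joined Hook1 as called higher, which 50.7% of genes were on that scale.

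**Figure D1:**
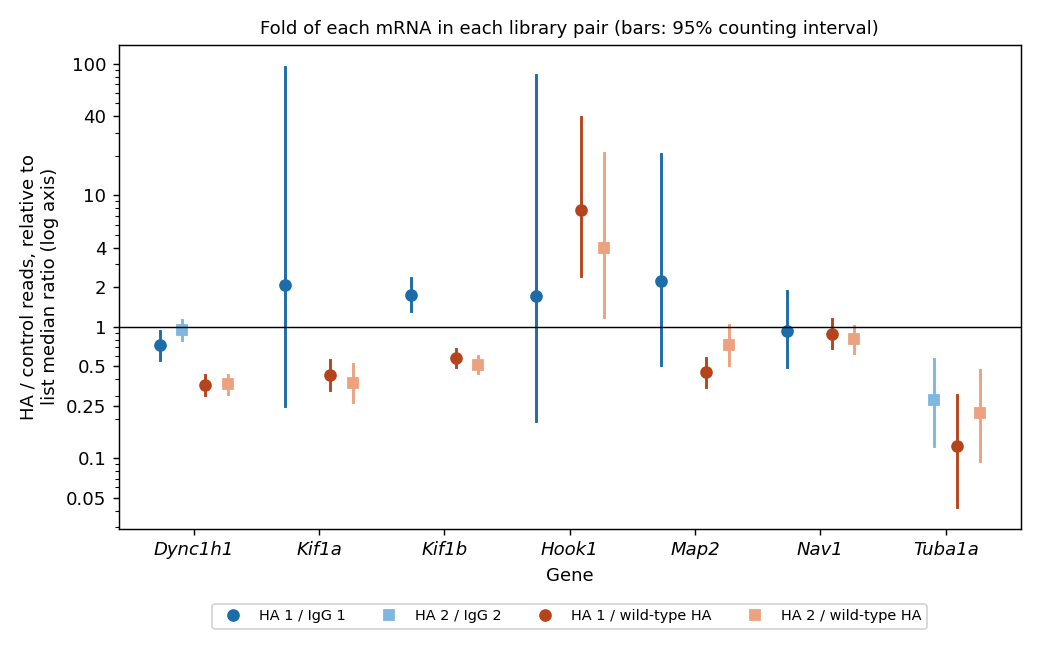
Fold of each member mRNA (y axis, log scale; reads of knock-in HA over control, relative to the list median ratio) in the 4 library pairs, with bars for the 95% counting interval of that pair. Dync1h1, Kif1a, Kif1b and Tuba1a lie wholly below 1 in both pairs with wild-type HA, Hook1 lies wholly above 1 in both, and the points over IgG are missing where the list holds no region of the gene.

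Over IgG the members were spread to both sides and fewer could be measured. In mouse 1, 6 members had a region and 3 had at least 20 reads, of which Kif1b was called higher (7.66% of 1097 genes were), Dync1h1 lower (23.5% were) and Nav1 neither. In mouse 2, Dync1h1 and Tuba1a had a region, and Tuba1a was called lower, as were 28.5% of 719 genes; neither was called higher, which 10.2% were. The members had 28 and 4 regions over IgG in mice 1 and 2, and 45 and 42 over wild type. The mouse 2 list over IgG held 75 regions on chromosome 4, against 1043 in mouse 1, but 828 and 817 on chromosomes 12 and 15. On chromosome 1 it held no region with at least 20 reads, against 131 in mouse 1. Kif1a, Map2 and Nav1 lie on chromosome 1 and Kif1b and Hook1 on chromosome 4. Their absence from that list cannot be told apart from this gap, whose cause was not tested. Dync1h1 was the only member with at least 20 reads in all 4 lists, so it alone could be tested over both mice.

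Dync1h1 encodes the heavy chain that holds the motor domain of cytoplasmic dynein, and its gene spans chr12:110601452-110666945 on the plus strand with 77 exon blocks. It held 190 and 245 HA reads in mice 1 and 2, against 91 and 273 IgG reads, and against 374 and 383 wild-type HA reads in the same regions. The wild-type library thus had more Dync1h1 reads than either knock-in HA library, while the IgG libraries lay on opposite sides of their HA partners. The fold over IgG was 0.721 (0.559 to 0.937) in mouse 1 and 0.948 (0.795 to 1.13) in mouse 2, a log2 mean of -0.27 ± 0.28 (SD, n = 2). Across 392 genes, limma called 29 higher (7.40%) and 95 lower (24.2%) in HA than in IgG at an adjusted p of 0.05. Dync1h1 was not among them, with limma adjusted p = 0.377. Relative to the list medians, limma's log2 estimate was -0.28 (SE 0.21), with HA lower in 2 of 2 mice. The median ratio of regions on chromosome 12 was 0.565 and 0.755 of the list median over IgG, and relative to that chromosome's median the Dync1h1 difference turned to 0.34 (limma adjusted p = 0.149). On the pooled scale it passed at -1.03 (limma adjusted p = 0.00841), where 67.9% of the genes were called lower. Over wild type the fold was 0.360 (0.301 to 0.430) and 0.366 (0.310 to 0.430), a log2 mean of -1.46 ± 0.02 (SD, n = 2). This side of 1 was kept relative to the chromosome median and on the pooled scale. Because both lists share 1 wild-type library, this SD and those over wild type below hold no variation between wild-type libraries. Of the Dync1h1 regions over wild type, 1 in mouse 2 had an authors' adjusted p below 0.05, the one at the gene's start (0.786, 0.288 to 2.25). None in mouse 1 did.

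Most Dync1h1 reads lay in 1 long region of the gene body, which holds exons and introns. Exonic bases made up 24.4% of that region in mouse 1 and 25.2% in mouse 2, beside 21.9% of the whole gene. The region chr12:110617921-110661600 touched 60 exons and held 159 of the 190 HA reads of mouse 1, with 71 IgG and 317 wild-type reads. The last region, chr12:110664481-110668560, held 18 HA reads, 13 IgG reads and 39 wild-type reads. In mouse 2 the region chr12:110624401-110664000, again with 60 exons, held 193 HA reads, 202 IgG reads and 298 wild-type reads. Of the 4 and 3 regions, only the mouse 2 region at the gene's start had more HA than wild-type reads, with 11 and 8. The last region of mouse 1 also overlaps 1700001K19Rik and Gm17111, and whether counting used the strand was not given in the sources used here, so its reads cannot be assigned to 1 gene. Among 329 genes with at least 20 reads in all 4 lists, the 4 log2 folds nearest to those of Dync1h1 were those of Sipa1l1, which encodes a Rap GTPase-activating protein of synapses (Euclidean distance 0.569), and of Enpp2, which encodes the secreted enzyme autotaxin (0.968). Over IgG the log2 folds of Sipa1l1 were 0.09 and -0.11, and over wild-type HA they were -1.56 and -1.47.

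Kif1a, the gene of the axonal kinesin that carries synaptic vesicle precursors, spans chr1:93015464-93101951 on the minus strand. It held 95 and 63 HA reads in mice 1 and 2, against 157 and 96 wild-type HA reads. The wild-type library was higher in both lists, and the fold was 0.428 (0.329 to 0.556) and 0.375 (0.268 to 0.521), a log2 mean of -1.32 ± 0.14 (SD, n = 2). Over IgG it had 1 region in mouse 1, with 6 HA reads and 1 IgG read, a fold of 2.07 with an interval of 0.251 to 95.4, and no region in mouse 2. Regions with under 10% exonic bases and those with more gave overlapping intervals over wild type. In mouse 1 the under-10% class held 68 HA and 102 wild-type reads (0.472, 0.342 to 0.648) and the class between 10 and 50% held 27 and 55 (0.348, 0.211 to 0.561). In mouse 2 the folds were 0.384 and 0.355. These classes, like the parts of genes compared below, were chosen after the values were seen.

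Kif1b, the gene of a kinesin of mitochondria and synaptic vesicle precursors, had the most regions of any member and, over wild type, the most HA reads per kb of region. It spans chr4:149176319-149307693 on the minus strand, and its regions held 9.68 and 10.2 HA reads per kb in mice 1 and 2 over wild type, beside 11.8 and 11.3 wild-type reads per kb. It held 300 and 349 HA reads in these regions, against 365 and 386 wild-type reads. The wild-type library had slightly more raw reads in both lists, and relative to the list medians the fold was 0.582 (0.498 to 0.680) and 0.517 (0.446 to 0.599), a log2 mean of -0.87 ± 0.12 (SD, n = 2). On the pooled scale the mean fold was 0.974, so the call rests on the scale. Over IgG in mouse 1 it held 292 HA reads against 58 IgG reads, a fold of 1.74 (1.31 to 2.35), and it had no region over IgG in mouse 2. Kif1b thus lay above the list median over IgG and below it over wild type in the same HA library. Over IgG its fold was 1.44 relative to the chromosome median and 1.30 on the pooled scale. With the median over regions with at least 50 reads it was 1.17, so the value over IgG also rests on the scale.

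**Figure D2:**
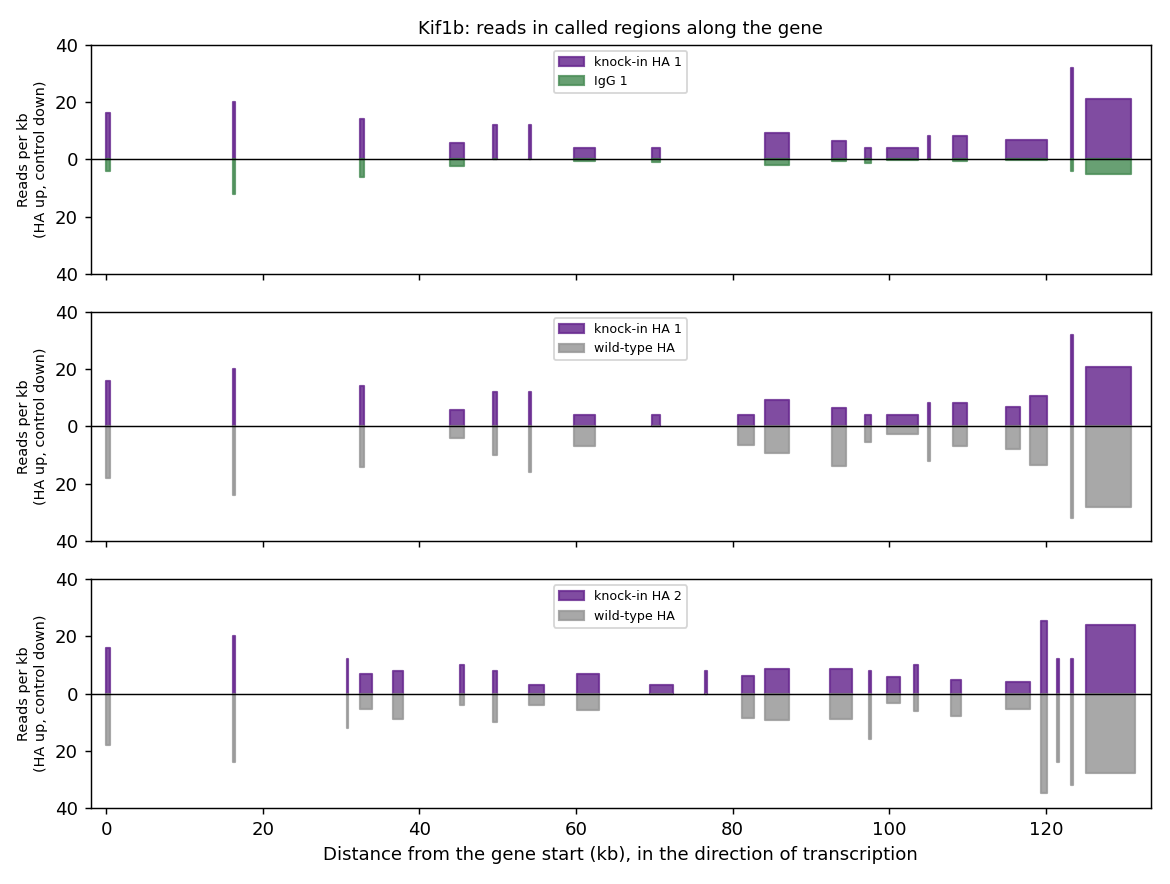
Reads per kb in each called region of Kif1b (y axis; knock-in HA upward, control downward) against distance from the gene start in kb (x axis), for mouse 1 over IgG, mouse 1 over wild-type HA and mouse 2 over wild-type HA. HA bars exceed IgG bars throughout the gene in mouse 1, while in both mice some regions have taller HA bars and others taller wild-type HA bars.

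The annotation (GENCODE M21) gives Kif1b a short and a long form that share their first exons and then end in different tails. The junctions are shown because they separate the reads of both forms; capitals mark the first bases of the exon that follows the last shared one, on the minus strand of chromosome 4, with the short form continuing into chr4:149233734-149238483 and the long form into chr4:149226263-149226356.
Kif1b short form: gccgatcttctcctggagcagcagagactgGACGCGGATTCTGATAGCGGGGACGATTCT
Kif1b long form: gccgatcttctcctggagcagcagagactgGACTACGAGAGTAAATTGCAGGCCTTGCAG
The last exon of the short form held few reads. Over wild type it had 1 region in each mouse, with 4 and 9 HA reads, against 0 and 1 wild-type reads, at 1 and 3 kb of called region. Beyond it, the part used by the long form held 246 and 270 HA reads, against 308 and 317 wild-type reads, a fold of 0.566 (0.476 to 0.671) and 0.487 (0.412 to 0.574). The shared part held 50 and 70 HA reads, against 57 and 68 wild-type reads, a fold of 0.621 (0.416 to 0.924) and 0.588 (0.415 to 0.834). The intervals of the shared and the long-form part overlap in both mice. Over IgG in mouse 1 the long-form part held 238 HA and 43 IgG reads (1.91, 1.38 to 2.71), the shared part 50 and 14 (1.23, 0.672 to 2.42), and the short-form exon 4 and 1.

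Some Kif1b regions have the same coordinates in 3 lists and so give reads of 4 libraries at 1 place. The region chr4:149220501-149223500, over 3 exons, held 28 and 26 HA reads, 6 IgG reads of mouse 1 and 28 wild-type reads. A region of 250 bases that holds 1 coding exon, chr4:149184251-149184500, held 8 and 3 HA reads, 1 IgG read and 8 wild-type reads. That exon, chr4:149184309-149184430, is shown as an example of a short called region with its letters, from the minus strand.
Kif1b coding exon: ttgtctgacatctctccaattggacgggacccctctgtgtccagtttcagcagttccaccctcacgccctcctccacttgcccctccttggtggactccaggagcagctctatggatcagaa
The region at the gene's start, chr4:149307251-149307750, held 8 HA reads in each mouse, 2 IgG reads and 9 wild-type reads.

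The control libraries differed from each other on these genes. In regions with identical coordinates in both lists of mouse 1, Kif1b held 308 wild-type HA reads and 56 IgG reads in 16 regions. That wild-type to IgG ratio was 2.80 times the median of 397 such regions with at least 20 reads (2.10 to 3.79). For Dync1h1 it was 2.09 times the median (1.66 to 2.66) in mouse 1, from 374 wild-type and 91 IgG reads, and 3.20 times (2.74 to 3.76) in mouse 2, from 383 and 273. Nav1 lay near the median at 1.16 times (0.603 to 2.36), and Tuba1a in mouse 2 at 1.56 times (0.911 to 2.64). Anti-HA on wild-type tissue, which lacks the tag, thus held more Kif1b and Dync1h1 reads relative to other regions than IgG did. What these controls differ in besides the antibody and the genotype was not tested.

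Hook1, which links dynein and dynactin to endosomal cargo, was the member that lay highest over wild type. Its gene spans chr4:95967240-96025413 on the plus strand. It held 33 and 21 HA reads in mice 1 and 2, against 3 wild-type HA reads in each list. The fold was 7.79 (2.44 to 39.7) and 4.00 (1.19 to 20.9), a log2 mean of 2.48 ± 0.68 (SD, n = 2), and with 3 wild-type reads the size is poorly set. The region chr4:96021501-96025250 at the 3' end, which holds 237 coding and 2916 UTR bases, had identical coordinates in both lists, with 16 and 18 HA reads and all 3 wild-type reads. The other regions, 4 in mouse 1 and 1 in mouse 2, held 17 and 3 HA reads and 0 wild-type reads.

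Over IgG, Hook1 had regions in mouse 1 only, with 5 HA reads and 1 IgG read (1.73, 0.193 to 81.7), so a difference from IgG was not detectable at this depth. The 3' end region was not among them. The first of those regions, chr4:95967001-95967500, overlaps the transcript 9530080O11Rik and held 2 of the HA reads.

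**Figure D3:**
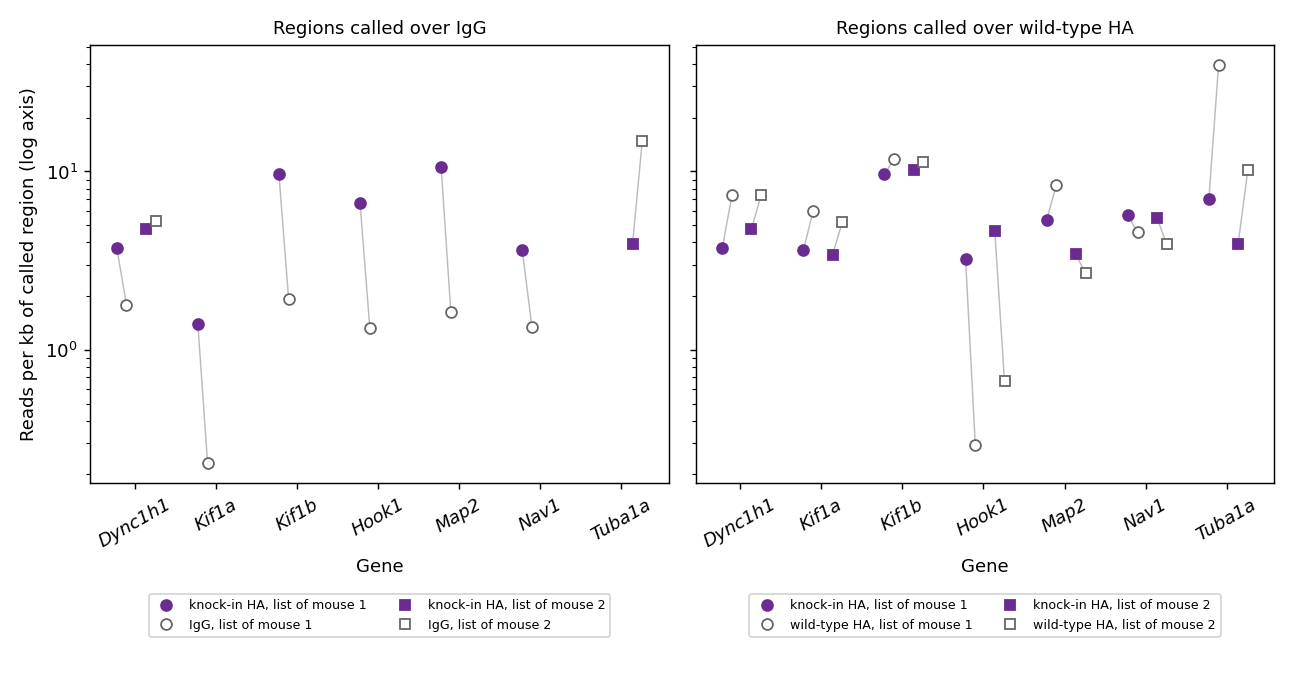
Reads per kb of called region (y axis, log scale) for the members in the lists over IgG (left) and over wild-type HA (right), knock-in HA filled and control open, with lines joining the pair of 1 list. Hook1 is the member whose knock-in HA points stand far above wild-type HA in both mice, and Tuba1a the member whose points stand far below it.

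Map2 gave different values in its mostly exonic and its mostly intronic regions over wild type. Its gene spans chr1:66175273-66442583 on the plus strand. It held 100 and 78 HA reads in mice 1 and 2, against 157 and 61 wild-type HA reads, so the raw counts lay on opposite sides. The fold was 0.451 (0.347 to 0.583) and 0.731 (0.516 to 1.04), a log2 mean of -0.80 ± 0.49 (SD, n = 2), and the mean fold was 1.02 on the pooled scale. The regions with the authors' adjusted p below 0.05 were the mostly intronic ones in both mice, with a mean fold of 1.09. Regions with at least 50% exonic bases held 59 and 20 HA reads, against 122 and 29 wild-type reads, a fold of 0.342 (0.247 to 0.471) and 0.394 (0.211 to 0.721). Regions with under 10% exonic bases held 41 and 43 HA reads, against 35 and 17 wild-type reads, a fold of 0.830 (0.515 to 1.34) and 1.45 (0.807 to 2.70). In both mice the intervals of these classes do not overlap, and the exonic class is the lower. Over all protein-coding genes the median fold was 0.951 and 0.987 for regions with at least 50% exonic bases and 1.06 and 1.02 for those under 10%.

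The Map2 regions also differ in place. The last one, chr1:66439271-66441730 in mouse 1, held 41 HA and 84 wild-type reads, and chr1:66439476-66440705 in mouse 2 held 20 and 29. The mostly intronic region chr1:66401346-66412620 held 35 and 35 in mouse 1, and chr1:66401756-66411800 held 27 and 11 in mouse 2. The mouse 2 region lies inside the mouse 1 region and holds 0 exonic bases, where the mouse 1 region holds 292. The 35 and 11 are reads of the same wild-type library, so part of the 35 lies at the edges, where the exonic bases are. In mouse 1 the class under 10% is therefore no measure of introns alone. Over IgG, Map2 had 2 regions in mouse 1 with 13 HA and 2 IgG reads (2.25, 0.508 to 20.5) and none in mouse 2.

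**Figure D4:**
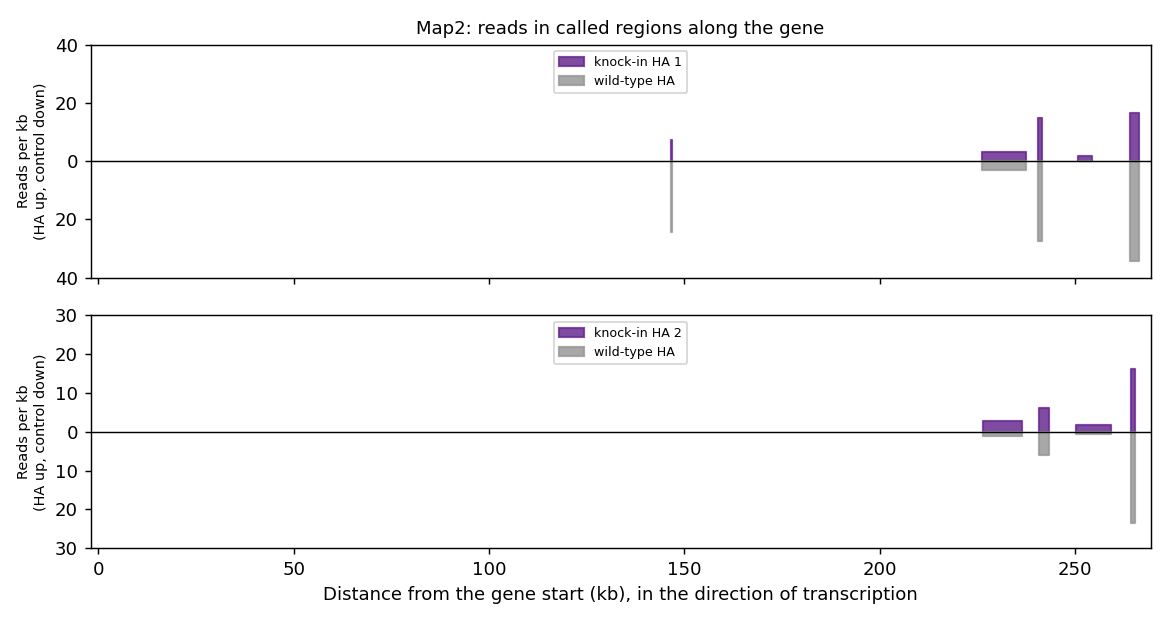
Reads per kb in each called region of Map2 (y axis; knock-in HA upward, wild-type HA downward) against distance from the gene start in kb (x axis), for mouse 1 (top) and mouse 2 (bottom). Wild-type HA bars are taller in the last region of the gene in both mice, while the wide, mostly intronic regions have HA bars at least as tall as wild-type bars.

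MAP2 is made in long and short forms that differ by a large coding exon, chr1:66412407-66416147, which spans 3741 bases. The junctions below are shown because the called regions hold little of this exon; capitals mark the first bases after the last shared exon on the plus strand of chromosome 1.
Map2 with the long exon: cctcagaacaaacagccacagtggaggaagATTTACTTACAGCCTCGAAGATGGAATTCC
Map2 without the long exon: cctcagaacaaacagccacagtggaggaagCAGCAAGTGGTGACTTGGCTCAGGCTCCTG
Of the long exon's bases, 42 lay inside regions over IgG in mouse 1, and 461 and 42 over wild type in mice 1 and 2. The Map2 reads in the lists therefore give no measure of the long form against the short form.

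Nav1 encodes neuron navigator 1, a protein of microtubule plus ends in growing neurites, and its gene spans chr1:135434580-135607295 on the minus strand. It held 141 and 167 HA reads in mice 1 and 2, against 113 and 119 wild-type HA reads. Both HA libraries had more raw reads than wild type, and the fold was 0.884 (0.685 to 1.14) and 0.802 (0.630 to 1.02), a log2 mean of -0.25 ± 0.10 (SD, n = 2). On the pooled scale the mean fold was 1.49. Over IgG in mouse 1 it held 38 HA and 14 IgG reads (0.938, 0.497 to 1.87), with no region in mouse 2. The 3' end regions, chr1:135434481-135441860 and chr1:135434071-135441860, held 65 and 82 HA reads, against 46 wild-type reads in each list, at 1.00 and 1.02 of the list median ratio. The region chr1:135447191-135455595, which touches 11 exons and also holds Mir1231, held 35 HA, 13 IgG and 32 wild-type reads in mouse 1. A further 16 and 12 HA reads lie in regions shared with the gene model Gm4793.

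Tuba1a encodes a major alpha-tubulin of neurons, and it lay furthest below wild type among the members. Its gene is short, chr15:98949837-98953703 on the minus strand, with 4 exons. It held 6 and 10 HA reads in mice 1 and 2, against 34 and 26 wild-type HA reads. Both wild-type counts are of the 1 wild-type library, in overlapping regions of 0.855 and 2.565 kb. The fold was 0.125 (0.0429 to 0.301) and 0.220 (0.0946 to 0.471), a log2 mean of -2.59 ± 0.58 (SD, n = 2). Over IgG it had a region in mouse 2 only, with 10 HA and 38 IgG reads (0.278, 0.124 to 0.569). All 3 intervals lay below 1, and the 2 lists of mouse 2 share the same 10 HA reads. The mean over wild type stayed below 1 on the pooled scale, at 0.294-fold.

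Reads of Tuba1a can come from related tubulin genes. Of the 50-base windows of its transcripts, the length of the reads, 75.5% also occur in transcripts of other genes, 46.9% in Tuba1c, where the other members had 0.0518% to 3.81%. The authors' handling of reads that match several genes was not given in the sources used here, so the Tuba1a values are uncertain.

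Per kb of called region over wild type, the order of the knock-in HA levels was led by Kif1b in both mice. In mouse 1 the others ran from 3.22 reads per kb for Hook1 to 7.02 for Tuba1a, and in mouse 2 from 3.41 for Kif1a to 5.50 for Nav1. Apart from Kif1b, the order was not shared by the mice: Tuba1a held 7.02 and 3.90 HA reads per kb in mice 1 and 2, Map2 5.36 and 3.43, and Hook1 3.22 and 4.67. In wild-type HA, Hook1 was the lowest member at 0.293 and 0.667 reads per kb, and the highest was Tuba1a at 39.8 in mouse 1 and Kif1b at 11.3 in mouse 2. The regions contain introns and differ between lists, so these are levels per region and not per mRNA.

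The members' larger families were followed in lists of related genes that include the members. Kinesins had a region for 13 of 44 genes. Of those with at least 20 reads over wild type, 1 of 9 was called higher and 2 lower in mouse 1, and 1 of 11 higher and 4 lower in mouse 2, where Kif1a and Kif1b were among the lower ones in both. Of all genes, 11.5% were called higher and 8.29% lower in mouse 1, and 9.06% and 9.30% in mouse 2. Klc1, the kinesin light chain, held 105 and 111 HA reads, against 105 and 236 IgG reads, so raw reads were equal in mouse 1. Relative to the list medians limma called it lower (log2 -1.27, SE 0.22, limma adjusted p = 0.0327, lower in 2 of 2 mice). The same call was given to 24.2% of 392 genes. Relative to the median of chromosome 12, where it lies, the Klc1 estimate was -0.65 (limma adjusted p = 0.0328). Over wild type Klc1 was 0.826 and 0.857 of the list median with intervals that include 1. Kif3c, a kinesin-2 motor, was not called in any list (limma log2 -0.02, SE 0.17, limma adjusted p = 0.939). Kifc2, a kinesin with a C-terminal motor, held 65 and 115 HA reads, against 65 and 88 wild-type reads, and was called lower in mouse 2 only (0.747, 0.561 to 0.997). Kif21a, a kinesin that restrains microtubule growth, lay at 0.890 and 0.822 over wild type, called in neither.

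Among 23 genes of dynein and dynactin, 9 had a region. Dctn1, the large dynactin subunit p150Glued, held 74 and 84 HA reads, against 63 and 71 wild-type reads, and was called lower in mouse 2 (0.676, 0.487 to 0.941) but not in mouse 1 (0.832, 0.586 to 1.18). Actr1b, an actin-related protein of dynactin, was 0.813 and 1.26, called in neither. Dync1h1 was thus the only gene of the list that was called lower over wild type in both mice.

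Among 22 motor adaptors, 6 had a region. Mapk8ip2, the JIP2 scaffold that binds kinesin light chain, held 43 and 26 HA reads, against 153 and 68 wild-type reads, a fold of 0.199 (0.138 to 0.281) and 0.218 (0.133 to 0.348). Over IgG in mouse 2 it held 44 HA and 16 IgG reads (2.90, 1.61 to 5.52). Kidins220, a kinesin-linked neurotrophin receptor scaffold, held 103 and 120 HA reads, against 90 and 223 IgG reads. Its raw HA reads thus exceeded its IgG reads in mouse 1. Relative to the list medians limma called it lower (log2 -1.08, SE 0.22, limma adjusted p = 0.0447, lower in 2 of 2 mice). The same call was given to 24.2% of 392 genes. Without the mouse as a block limma called 0 genes lower (0 at an unadjusted p of 0.05), so the limma calls of Klc1 and Kidins220 are lost there. Kidins220 also lies on chromosome 12, and relative to that chromosome's median it no longer passed, at -0.46 (limma adjusted p = 0.0852). Over wild type Kidins220 was 1.53 (1.08 to 2.20) and 1.04 (0.763 to 1.43). Trak2, a mitochondrial adaptor, and Bicd1, a dynein adaptor, were called in neither mouse over wild type, at 1.05 and 0.906 for Trak2 and 1.89 and 1.81 for Bicd1.

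Structural microtubule-associated proteins had a region for 7 of 21 genes, of which Map2 in mouse 1 was the only one called over wild type. Camsap2, which binds minus ends, was 0.779 and 1.25, and Map7d1, a kinesin cofactor, was 1.00 and 1.07. Plus-end proteins had a region for 4 of 17 genes, and Clasp1, a microtubule stabiliser, held 25 and 26 HA reads, against 7 and 8 wild-type reads (2.53, 1.06 to 6.93, and 1.86, 0.817 to 4.75). Tubulins had a region for 3 of 15 genes, and Tuba4a, an alpha-tubulin, held 36 and 49 HA reads, against 38 and 36 wild-type reads (0.671, 0.413 to 1.09, and 0.778, 0.496 to 1.23). Tubulin-modifying enzymes had a region for 7 of 24 genes, and Vash1, a tubulin carboxypeptidase, was called in no list (limma log2 0.01, SE 0.15, limma adjusted p = 0.977).

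**Figure D5:**
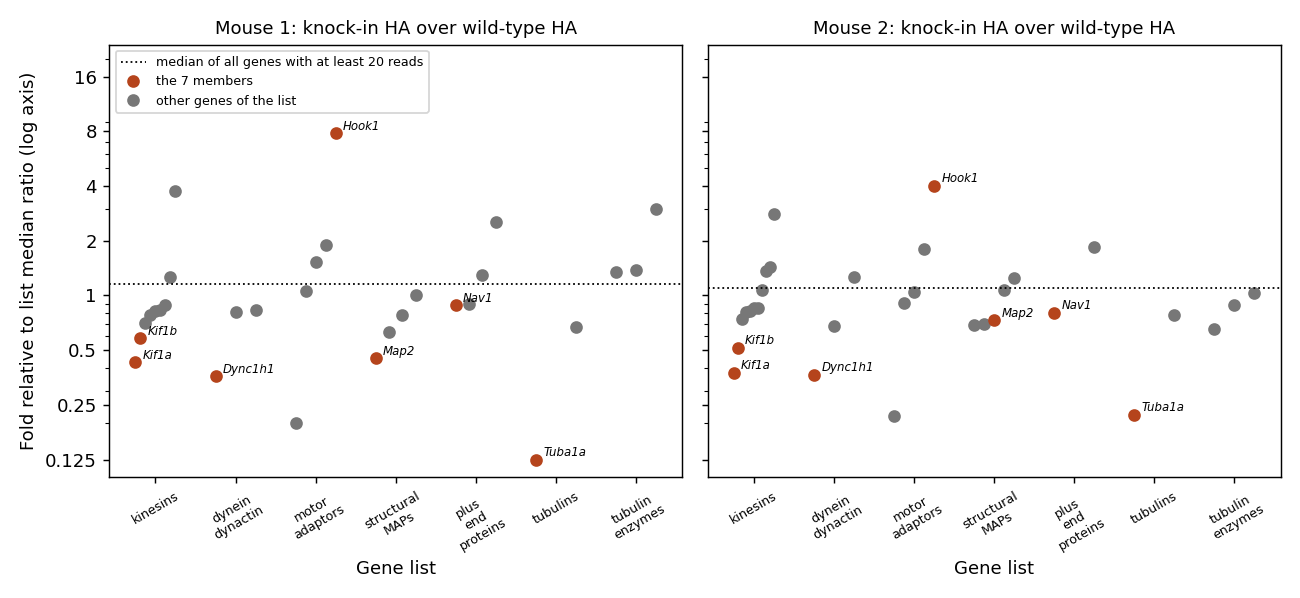
Fold over wild-type HA (y axis, log scale, relative to the list median ratio) of every gene with at least 20 reads in 7 lists of motor and microtubule genes (x axis), for mouse 1 (left) and mouse 2 (right), with the 7 members in colour and a dotted line at the median of all genes, 1.15 and 1.10. Dync1h1, Kif1a and Kif1b lie at the low end of their lists in both mice, and Hook1 lies at the top of the motor adaptors.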

How the data were processed

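Per the labels' protocols, RNA precipitated with anti-HA (Covance) or mouse IgG was sequenced single-end with 50 cycles. The submitters' processing notes name TopHat, TopHat2, GRCm38 and mm10; per the file headers the lists were written with rtracklayer 1.28.9, and the region caller was not given in the sources used here. The deposited lists hold other values, namely unscaled read numbers of both libraries, and per region the authors' p-value after adjustment and an empirical false discovery rate. Reads were summed per gene over regions inside it or overlapping it, for each of the 4 lists. A control of 0 was set to 3 counts per gene and list. The planned count model was replaced by limma 3.58.1 (R 4.3.3) on log2(reads + 0.5), with Benjamini-Hochberg adjustment over 392 genes and the mouse as a block, because each list pairs libraries of 1 knock-in number; it was tested on simulated data. The HA and IgG differences between the mice had a correlation of 0.685 across genes, in regions that differ between lists. Members, gene lists and tests were chosen with earlier results of these data known. Besides the members and Cyfip1, genes named were up to 4 per list by summed reads with at least 20 reads in both lists of a control, and the 2 nearest to Dync1h1; markers with a region and Kif26b, Hdac6 and Dynll2 are named outside this rule. Exons and sequences are from GENCODE M21. A stretch of sequence compared between related genes is not reported here.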

Additional observations from a re-analysis of the deposited data

How the results depend on the processing

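The members' median log2 fold (mean of both mice) was -0.53 over IgG and -1.05 over wild type. On the pooled scale it was -1.28 and -0.22, on the pooled scale without the region with the most reads -1.20 and -0.55, and in regions with the authors' adjusted p below 0.05 it was 0.090 and -0.31. Leaving out each mouse gave -0.96 to -0.09 and -1.15 to -0.95. Over IgG the median came from Dync1h1, Kif1b and Nav1 in mouse 1 and from Dync1h1 and Tuba1a in mouse 2. Its range there thus compares different genes and not the mice alone. Over all genes with at least 20 reads, the median fold over IgG was 0.839 in mouse 1 and 0.822 in mouse 2. Members called lower over wild type in both mice numbered 4, or 2 with the authors' adjusted p below 0.05 and 4 to 5 when each mouse was left out; 1 was called higher, or 2 on the pooled scale and 1 to 1 without either mouse. With the mouse as a block limma called 29 genes higher and 95 lower; with no replicate block it called 13 and 0 (19 and 0 at an unadjusted p of 0.05), and Dync1h1 stayed at -0.28 (limma adjusted p = 0.997). The pooled offset gave 266 lower, the chromosome median 18 higher and 30 lower, and 80 regions with identical coordinates 73 higher and 0 lower (73 and 0 unadjusted). Dync1h1 was -1.03 with the pooled offset and 0.34 with the chromosome median. Its limma adjusted p ran from 0.00841 to 0.997. The causes were not tested. Across 9 alternatives, Dync1h1, Kif1a and Kif1b stayed below 1 over wild type and Hook1 above it, and Tuba1a below it in 8 (no Tuba1a region had an authors' adjusted p below 0.05), while Map2 and Nav1 each turned in 2 of 9. The planned TMM and DESeq2 settings were not run, as limma replaced the count model. Depth is unknown, and few reads limit Hook1, Tuba1a and most members over IgG. The mouse 2 list over IgG also holds few regions of chromosome 4 and no well-covered ones of chromosome 1.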

Other observations

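Values of 3 further genes of the lists follow; they lie outside the rule for named genes and were picked with their values in view. Kif26b, an atypical kinesin of the kinesin-11 family, held 88 HA and 8 IgG reads in mouse 1 (3.80, 1.85 to 9.08) and had no region over IgG in mouse 2. Over wild type it held 64 and 49 HA reads, against 12 and 10 wild-type reads (3.78, 2.02 to 7.69, and 2.80, 1.40 to 6.20), the only kinesin called higher there. Hdac6, the tubulin deacetylase, held 73 HA and 62 IgG reads in mouse 1 (0.407, 0.286 to 0.580) and 63 HA and 55 wild-type reads in mouse 2 (0.655, 0.449 to 0.957). Dynll2, a dynein light chain, had a region over IgG in mouse 2 only, with 30 HA and 6 IgG reads (5.28, 2.16 to 15.5).

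Regions listed upstream of Dync1h1 were not counted with the gene. They held 39 HA and 39 IgG reads in mouse 1 (0.345, 0.216 to 0.553) and 58 HA and 90 IgG reads in mouse 2 (0.681, 0.481 to 0.957). Over wild type they held 42 HA and 37 wild-type reads (0.804, 0.504 to 1.29) and 58 HA and 37 wild-type reads (0.896, 0.583 to 1.39).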
